A study of Homo sapiens with 4 samples.

Results

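The genes described here belong to the transforming growth factor beta (TGF-beta) and bone morphogenetic protein (BMP) superfamily: its ligands, receptors, SMAD proteins, latency proteins and secreted antagonists, with the ID genes that BMP signals induce. They were chosen by symbol. The tables held 63 such genes among 35979 symbols, and 50 of the 63 had a mean normalized count of at least 20 over the 4 libraries.

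The study compared poly(A) RNA from NCI-H1048, an established cell line of human small cell lung cancer. It belongs to the tuft cell-like subtype, in which POU2F3 is the lineage transcription factor and COLCA2 encodes a co-activator that works with it. Cells carried a guide RNA (gRNA) for CRISPR knockout, and the groups were COLCA2 gRNA (labelled COLCA2 knockout, 2 libraries with a different guide each), POU2F3 gRNA (labelled POU2F3 knockout, 1 library) and non-targeting gRNA (labelled WT, 1 library, hereafter the control). No further treatment is labelled. Whether clones or mixed populations were sequenced, how long after guide delivery RNA was taken and where the guides cut are not given in the sources used here.

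Superfamily ligands are secreted dimers that bring type I and type II receptor kinases together. TGF-beta and activin receptors phosphorylate SMAD2 and SMAD3, BMP receptors phosphorylate SMAD1, SMAD5 and SMAD9, and both form complexes with SMAD4, while SMAD6 and SMAD7 restrain them. Follistatin, noggin and gremlin hold ligands away from receptors outside the cell. TGF-beta signals are known for stopping epithelial growth and for inducing matrix and mesenchymal genes, BMP signals for inducing ID genes.

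Between 21587741 and 29632382 reads per library were assigned to genes. POU2F3 itself had a normalized count of 14602 in the control, 1449 under the POU2F3 guide, and 3677 and 2351 under COLCA2 guides 1 and 2. COLCA2 stood at 5585, 1393, 3119 and 3541 in the same order, so each targeted gene was lower in its own libraries, and COLCA2 was lowest of all under the POU2F3 guide. The control expressed tuft markers: 8 of 12 passed the expression minimum, and the 12 summed to 47179 in the control against 10200, 15478 and 11545 under the POU2F3 guide and COLCA2 guides 1 and 2. Most of the control sum came from POU2F3, itself a targeted gene, and from SOX9, which had 17848 there. Of 5 leukocyte markers 2 passed the minimum, CD68 and LYZ, and of 4 endothelial markers 2, PECAM1 and VWF, while CD3E and KDR were listed at 0 in all 4 libraries. The leukocyte list summed to 162 in the control and to 212, 263 and 261 in the targeted libraries, with CD68 at least 2-fold higher under both COLCA2 guides. The endothelial list summed to 65.9, 47.8, 41.5 and 52.9, with VWF at least 2-fold lower under each target. Their part in the superfamily values was not tested.

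Log2 ratios are given against the control after adding 1 to each normalized count, which understates the change of low genes. Ratios given off the log2 scale, and their exact intervals, were taken without that addition. All comparisons with the control share that single library, and the POU2F3 group has no replicate, so a gene at least 2-fold apart is counted without a test. The SD over the COLCA2 guides (n = 2) is the only spread within a group and holds guide, culture and library differences together, since the labels do not say whether the cultures were separate. In these bulk samples a change in the share of cells that express a gene and a change in RNA per cell cannot be told apart.

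Promoter windows were searched because many members differed from the control in the same direction. RefSeq windows (GRCh38.p14) of 250 bases before a RefSeq start were matched for 54 of the 63 members, 90 windows in all. Of the 18 members at least 2-fold apart 14 were matched, with 22 windows. BMP2, BMP3 and NOG were among those not matched. Shown 5′ to 3′ are the window of TGFB2, the TGF-beta ligand with the largest difference, and 30 bases around a match in 4 other members, with matches in capitals. All lie on the plus strand, at chr1:218345086-218345335 for TGFB2, chr5:53480457-53480486 for FST, chr19:18385916-18385945 for GDF15, chr6:19837120-19837149 for ID4 and chr15:66702213-66702242 for SMAD6. These RefSeq starts can differ from the gene starts of GENCODE release 29, from which the gene positions below come. The FST and GDF15 stretches lie inside the GENCODE gene spans, and that of SMAD6 crosses the GENCODE start. The TGFB2 window ends short of the GENCODE start.
TGFB2: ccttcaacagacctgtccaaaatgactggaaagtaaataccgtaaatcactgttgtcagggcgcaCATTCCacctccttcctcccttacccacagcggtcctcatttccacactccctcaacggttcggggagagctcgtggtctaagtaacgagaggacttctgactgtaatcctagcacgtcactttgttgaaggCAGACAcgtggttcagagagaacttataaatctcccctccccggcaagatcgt
FST: ggaaatgtcaccTGATTCAcactgaacttt
GDF15: gactcccaggctGGAATGgtgtcctcatat
ID4: gtCATTCCccgaggtggcactgcccgcctg
SMAD6: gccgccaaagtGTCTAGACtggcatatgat

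On both strands, 5 motifs were searched, none of which contains another. GGAATG, the core that TEAD factors bind, was present in 11.9% of all 35116 windows, in 11 of the 90 member windows, and in 3 of the 22 windows of members at least 2-fold apart, those of TGFB2, GDF15 and ID4. TGANTCA, the AP-1 motif, was in 6.57% of all windows, in 5 of 90 and in 1 of 22, that of FST. CAGACA, a SMAD-binding repeat, was in 13.6%, in 14 of 90 and in 4 of 22, those of TGFB2, BMP4, BMPR1B and GREM1. GTCTAGAC, the palindrome that SMAD3 and SMAD4 bind, was in 0.182% of all windows and, among members, in that of SMAD6. There it began 12 bases before the RefSeq start. ATGCAAAT, the octamer of POU2F factors, was in 1.63% of all windows, in 2 of 90 and in 0 of 22. These are matches of letters in short windows and do not show binding.

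Under the POU2F3 guide 15 members (30% of the 50) were at least 2-fold higher than in the control, against 6.73% of all 14940 genes tested. Among them were TGFB1, TGFB2, BMP3, BMP4, GDF15, INHBA, BMPR1B, TGFBR2, SMAD7, ID4, GREM1, FST, FSTL1 and FSTL3. Lower members numbered 3 (6% of the 50, against 3.05% of all genes): BMP2, SMAD9 and NOG. Under both COLCA2 guides 14 members (28%, against 5.79%) were at least 2-fold higher, including each gene just named as higher other than ID4, and 3 (6%, against 2.02%) were at least 2-fold lower, again BMP2, SMAD9 and NOG. The median log2 ratio of the 50 was 0.23 under the POU2F3 guide and 0.15 for the mean of the COLCA2 guides, beside -0.0037 and -0.0086 over all genes. The members thus ranged widely, from -1.91 to 4.41 under the POU2F3 guide, while 22 of them stayed within 0.5 of 0 in all 3 targeted libraries. edgeR's quasi-likelihood test with Benjamini-Hochberg adjustment, in which the POU2F3 group borrows the spread of the COLCA2 pair, called 19 members higher and 4 lower for POU2F3 (8.45% and 3.98% of all genes). For COLCA2 it also called 19 higher and 4 lower (11.4% and 7.51%). Of the 50, 1 was under 20 in the control and passed the minimum through the other libraries. It is among the members counted as higher for both targets, by fold and by edgeR.

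**Figure D1:**
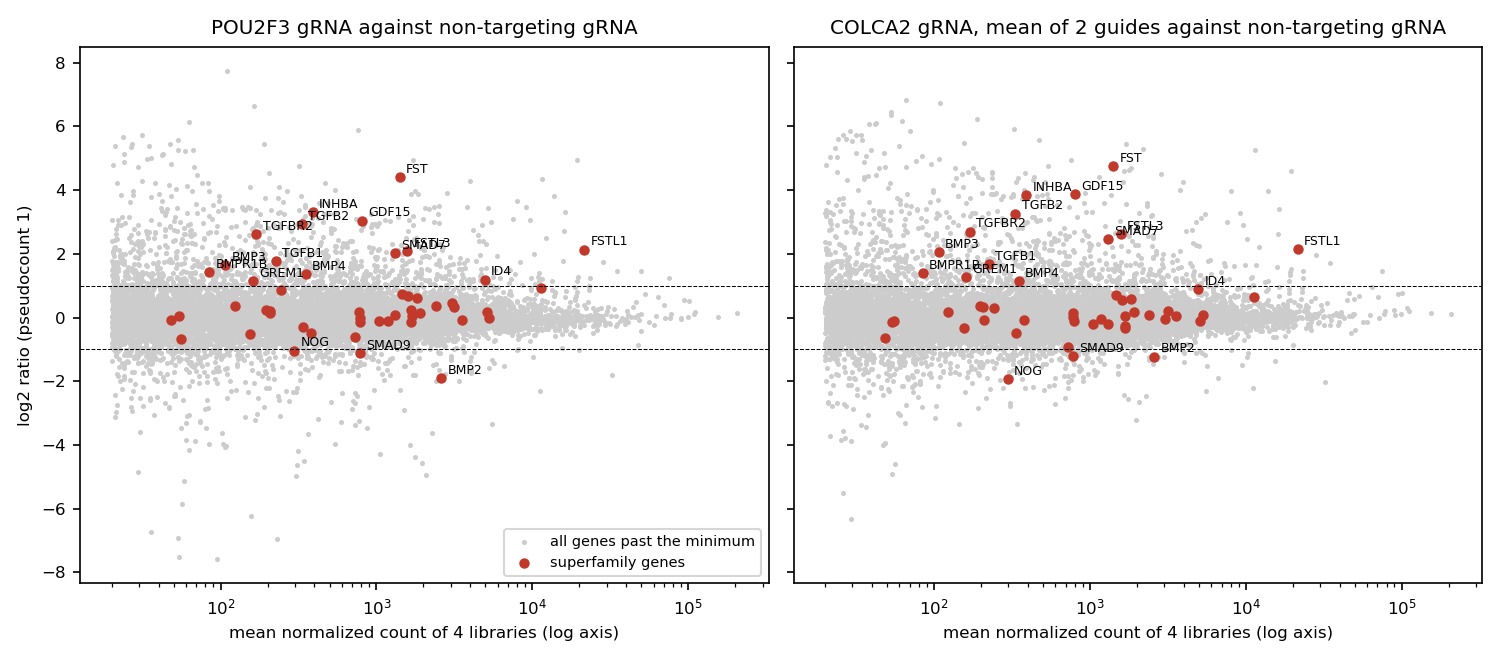
Log2 ratio to the control (vertical axis, pseudocount 1) against the mean normalized count of the 4 libraries (log axis) for genes past the minimum (grey) and 49 superfamily genes (red), under the POU2F3 guide on the left and the mean of the COLCA2 guides on the right. Dashed lines mark 2-fold; FST is the highest red point in both panels, and BMP2 on the left and NOG on the right are the lowest.

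The largest difference from the control was that of a secreted antagonist, FST. FST encodes follistatin, which binds activins and blocks them (ENSG00000134363, chromosome 5, 53480409 to 53487134, plus strand). Its normalized count was 72.6 in the control, 1565 under the POU2F3 guide, and 1875 and 2129 under COLCA2 guides 1 and 2. All 3 targeted libraries lay far above the control: the ratio was 21.6 under the POU2F3 guide (95% exact interval 17.1 to 27.5, counting error only), and the mean log2 ratio under the COLCA2 guides was 4.76 ± 0.13 (SD, n = 2). FSTL3, a relative of follistatin that also binds activin, had 361 in the control, 1526 under the POU2F3 guide, and 2254 and 2164 under the COLCA2 guides. Its log2 ratio was 2.08 under the POU2F3 guide and 2.61 ± 0.042 under the COLCA2 guides.

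FSTL1 encodes a secreted glycoprotein with a follistatin-like domain. It had 6011 in the control, 26412 under the POU2F3 guide, and 25214 and 28650 under COLCA2 guides 1 and 2, a ratio of 4.39, 4.19 and 4.77, with all 3 well above the control. GREM1, which encodes the BMP antagonist gremlin, had 80.2 in the control, 178 under the POU2F3 guide, and 205 and 182 under the COLCA2 guides. That difference is uncertain, because it sums 2 annotated rows: on the larger row alone the log2 ratio was 0.67 under the POU2F3 guide and 0.99 under the COLCA2 guides.

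Noggin differed in the other direction. NOG, whose product binds and neutralizes BMPs, had 589 in the control, 287 under the POU2F3 guide, and 172 and 138 under COLCA2 guides 1 and 2. Its mean log2 ratio under the COLCA2 guides was -1.93 ± 0.23 (SD, n = 2), against -1.03 under the POU2F3 guide, just past 2-fold. Compared per kilobase of the longest coding transcript, FSTL1 had the highest level of the 6 antagonists in every library. Noggin took 20.8% of the summed antagonist level in the control and 2.60%, 1.52% and 1.10% under the POU2F3 guide and COLCA2 guides 1 and 2. Follistatin took 1.91% and then 10.6%, 12.3% and 12.7%, and the summed level itself went from 1500.1 per kilobase to 5841, 5993 and 6618. Most of each sum was FSTL1, a related protein grouped here with the antagonists, with 67.4% in the control and then 76.1%, 70.8% and 72.8%. The sum and the shares within it therefore depend largely on FSTL1.

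**Figure D2:**
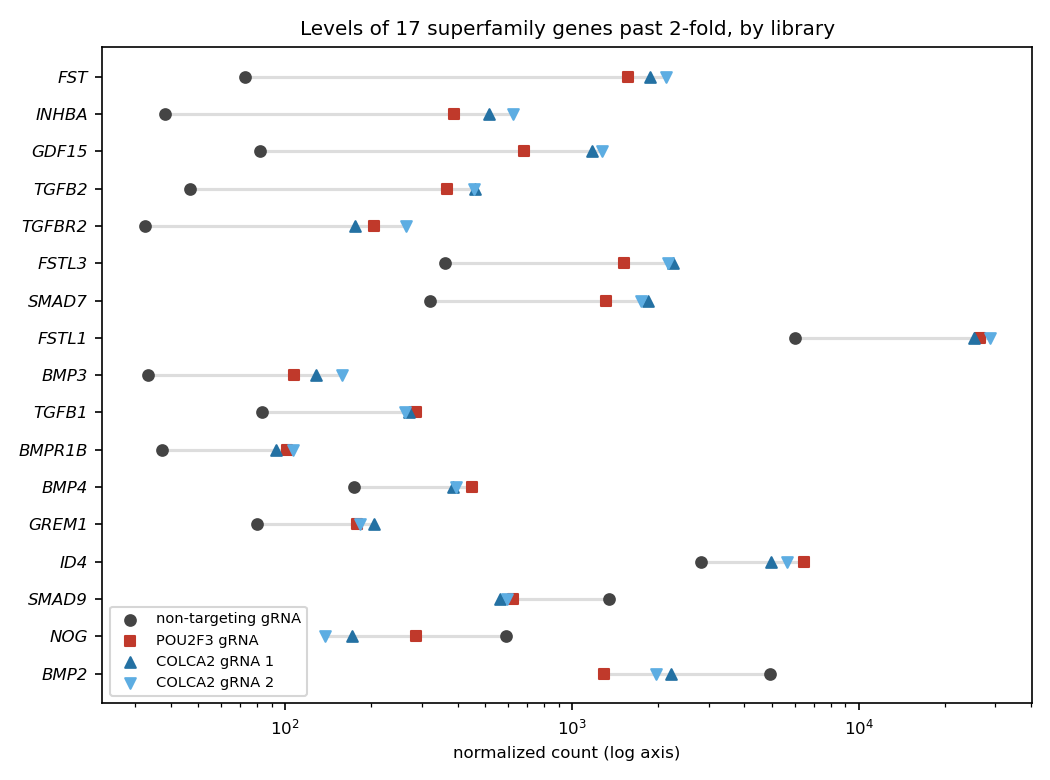
Normalized counts (log axis) of 17 superfamily genes at least 2-fold from the control under the POU2F3 guide or under both COLCA2 guides, 1 point per library, ordered by their mean change. For 14 genes the control (black circle) is the lowest of the 4 points, from TGFBR2 at 32.5 to FSTL1 at 6011, and for BMP2, NOG and SMAD9 it is the highest.

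Among the ligands, BMP2 was lower and GDF15, INHBA and TGFB2 were higher. BMP2 encodes a classic BMP ligand that signals through BMP receptors and SMAD1, SMAD5 and SMAD9 (ENSG00000125845, chromosome 20, 6767664 to 6780280, plus strand). Its normalized count was 4892 in the control, 1301 under the POU2F3 guide, and 2228 and 1962 under COLCA2 guides 1 and 2. The ratio was 0.266 under the POU2F3 guide (95% exact interval 0.251 to 0.282), and the mean log2 ratio under the COLCA2 guides was -1.23 ± 0.13 (SD, n = 2). BMP2 was lower under the POU2F3 guide than with either COLCA2 guide, by log2 differences of -0.78 and -0.59.

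GDF15 encodes a divergent, stress-induced ligand whose known receptor is GFRAL in the brainstem (ENSG00000130513, chromosome 19, 18374731 to 18389176, plus strand). It had 82.1 in the control, 683 under the POU2F3 guide, and 1179.8 and 1279.5 under the COLCA2 guides. Its level was thus higher under both COLCA2 guides than under the POU2F3 guide, the log2 difference of POU2F3 minus COLCA2 being -0.79 and -0.90 for guides 1 and 2. INHBA encodes the activin beta A subunit, which pairs into activin A (ENSG00000122641, chromosome 7, 41667168 to 41705834, minus strand). Its normalized count was 38.2 in the control, 390.3 under the POU2F3 guide, and 514 and 623 under the COLCA2 guides. The ratio was 10.2 under the POU2F3 guide (95% exact interval 7.39 to 14.5), and the mean log2 ratio under the COLCA2 guides was 3.85 ± 0.20 (SD, n = 2). INHBB, the beta B subunit, had 420.2 in the control, the highest level per kilobase of its role, and log2 ratios between -0.47 and -0.03.

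TGFB2 had 46.8 in the control, 367 under the POU2F3 guide, and 459 and 457 under COLCA2 guides 1 and 2 (ENSG00000092969, chromosome 1, 218346235 to 218444619, plus strand). The ratio under the POU2F3 guide was 7.84 (95% exact interval 5.83 to 10.8), and the COLCA2 guides gave a mean log2 ratio of 3.26 ± 0.0040. TGFB1, the founding member of the superfamily, had 83.1, 286, 271 and 262 in the same order of libraries, a log2 ratio of 1.77 under the POU2F3 guide and 1.67 ± 0.032 under the COLCA2 guides. TGFB1 shares exon bases with HNRNPUL1 on the other strand, which had 15313 reads in the control and 16862 under the POU2F3 guide, and the counting's use of strand is not given in the sources used here. TGFB3 had 164 in the control, the highest level per kilobase of the 3 isoforms there, with log2 ratios of 0.24 under the POU2F3 guide and 0.31 and 0.43 under the COLCA2 guides. TGFB1 and TGFB2, the isoforms lower per kilobase in the control, were therefore the ones more than 2-fold higher in the targeted libraries.

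BMP4, a close relative of BMP2, had 175 in the control, 449 under the POU2F3 guide, and 386 and 394 under the COLCA2 guides. BMP3, known as an antagonist-like BMP that dampens BMP signals in bone, had 33.4, 107, 129 and 159 in the same order. Both were thus higher in the libraries where BMP2 was lower. The other BMP ligands past the minimum, BMP6, BMP7, BMP8A and BMP8B, had log2 ratios from -0.51 to 0.27. BMP8A and BMP8B are close copies of each other, so how reads were split between them is uncertain. GDF11, a close relative of myostatin, had 1134 in the control and log2 ratios of -0.11, -0.12 and -0.27 for the POU2F3 guide and COLCA2 guides 1 and 2. GDF1 shares exon bases with CERS1 on the same strand, so its count is uncertain. BMP1, a procollagen-cleaving protease and not a ligand, had 1324 in the control and log2 ratios of 0.61, 0.55 and 0.62.

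On a scale of level per kilobase of the longest coding transcript, the 28 ligand genes summed to 2597 in the control and to 2363, 3096 and 3055 under the POU2F3 guide and COLCA2 guides 1 and 2. BMP2 made up 52.3% of that sum in the control and 15.3%, 19.98% and 17.8% in the targeted libraries. GDF15 made up 2.63% and then 24.1%, 31.8% and 34.9%, more than any other ligand gene in each targeted library. The 3 TGFB genes together went from 4.02% to 10.7%, 8.69% and 8.95%, and INHBA from 0.243% to 2.72%, 2.74% and 3.36%. BMP7 kept a similar share throughout, between 6.13% and 7.81%. These shares assume the longest transcript of each gene and move if shorter forms are used.

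**Figure D3:**
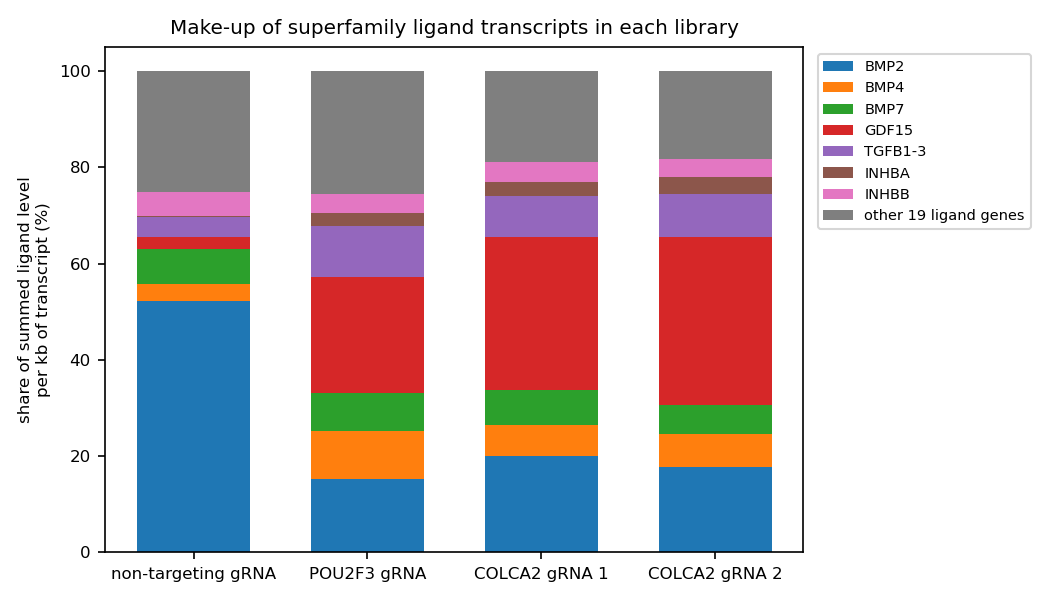
Share of the summed level per kilobase of transcript (vertical axis, %) that each ligand gene or gene group took in each of the 4 libraries. BMP2 (blue) takes 52.3% in the control and between 15.3% and 19.98% in the targeted libraries, where GDF15 (red) takes between 24.1% and 34.9%.

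One receptor of each type was at least 2-fold higher. TGFBR2 encodes the type II receptor that binds TGF-beta (ENSG00000163513, chromosome 3, 30606502 to 30694142, plus strand). It had 32.5 in the control, 205 under the POU2F3 guide, and 176 and 265 under COLCA2 guides 1 and 2. The ratio under the POU2F3 guide was 6.31 (95% exact interval 4.39 to 9.32), and the guides gave 2.70 ± 0.41 on the log2 scale (SD, n = 2), with the POU2F3 value between those of the 2 guides and all 3 above the control. Per kilobase, TGFBR2 went from 2.63% of the summed type II receptor level to 14.8%, 14.6% and 19.4%. BMPR2, the BMP type II receptor, had the largest share in each library, 51.5% in the control, and its log2 ratios lay between -0.02 and 0.23.

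ACVR2B, an activin type II receptor, had 1073 in the control, 700.0 under the POU2F3 guide, and 565 and 563 under the COLCA2 guides. All 3 were below the control value, by less than 2-fold: the log2 ratio was -0.62 under the POU2F3 guide and -0.93 ± 0.0031 under the COLCA2 guides. ACVR2A, its relative, had log2 ratios of 0.13, 0.34 and 0.29. Of the type I receptors, BMPR1B, which binds BMPs, had 37.2 in the control, 102 under the POU2F3 guide, and 93.3 and 107 under the COLCA2 guides. TGFBR1, the type I partner of TGFBR2, had 1755, 1942, 1860 and 2066 in the same order, so it was abundant throughout and its log2 ratios stayed between 0.08 and 0.24. ACVR1B, the activin type I receptor, and BMPR1A, a BMP type I receptor, had log2 ratios from -0.10 to -0.0049 and from -0.26 to 0.09. ACVR1 was the only member at least 2-fold apart between the COLCA2 guides, where 2.22% of all genes were, with 344 under guide 1 and 133 under guide 2, to either side of the 175 in the control. The co-receptor TGFBR3 had log2 ratios between -0.03 and 0.38.

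**Figure D4:**
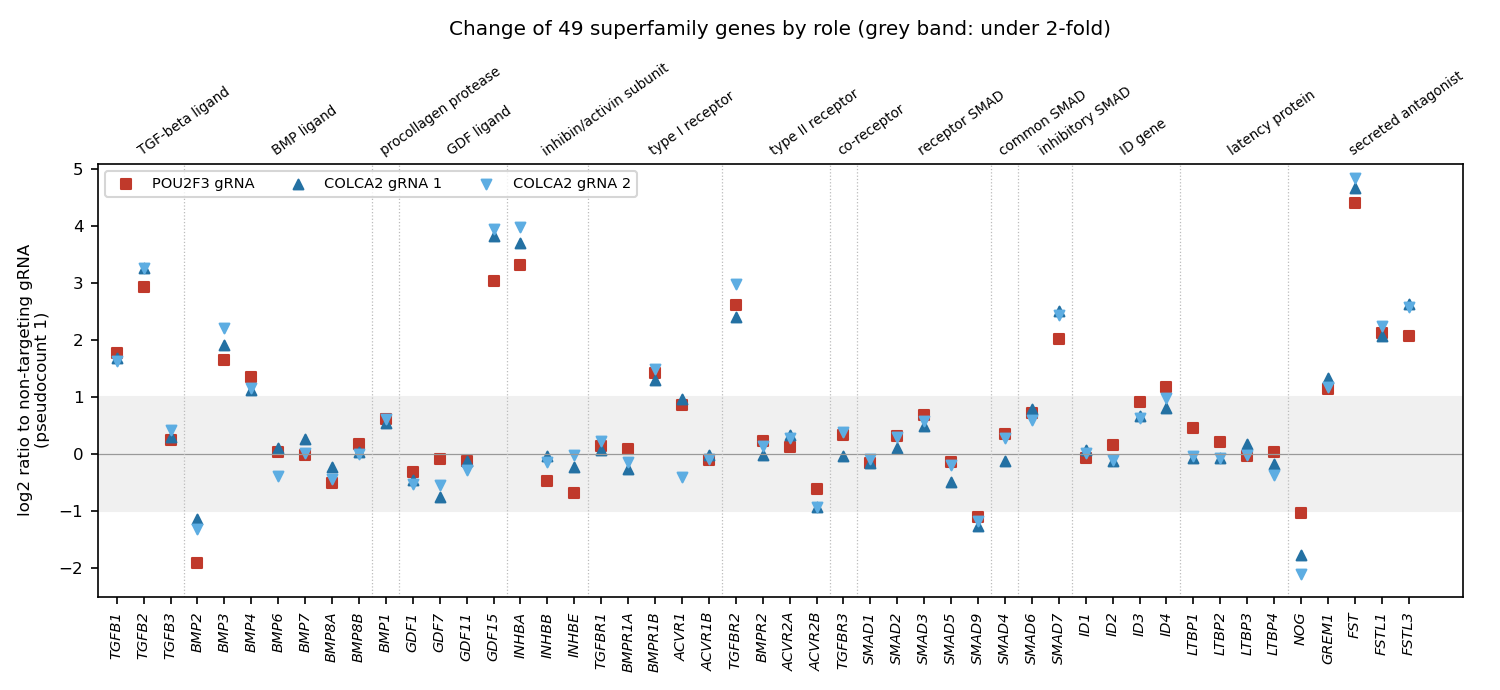
Log2 ratio to the control (vertical axis, pseudocount 1) of 49 superfamily genes past the minimum, grouped by role, with 1 point per targeted library and the range under 2-fold in grey. TGFB1, TGFB2, BMP3, BMP4, GDF15, INHBA, BMPR1B, TGFBR2, SMAD7, GREM1, FST, FSTL1 and FSTL3 sit above the band in all 3 libraries. BMP2, SMAD9 and NOG sit below it in all 3, and the latency proteins within it.

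Inside the cell, the inhibitory SMAD7 and the BMP-linked SMAD9 stood apart. SMAD7 encodes an inhibitory SMAD that TGF-beta signals induce and that shuts receptors down (ENSG00000101665, chromosome 18, 48919853 to 48952052, minus strand). It had 322 in the control, 1315 under the POU2F3 guide, and 1842 and 1746 under COLCA2 guides 1 and 2. The ratio under the POU2F3 guide was 4.09 (95% exact interval 3.63 to 4.61), and the COLCA2 guides gave a mean log2 ratio of 2.48 ± 0.054 (SD, n = 2). SMAD6, the inhibitory SMAD of the BMP branch, had 992 in the control and 1646, 1718 and 1512 in the others, log2 ratios of 0.73, 0.79 and 0.61.

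SMAD9 encodes the third BMP-branch receptor SMAD (ENSG00000120693, chromosome 13, 36844831 to 36920765, minus strand). Its normalized count was 1347 in the control, 625 under the POU2F3 guide, and 564 and 597 under the COLCA2 guides, a ratio of 0.464, 0.419 and 0.443. The targeted libraries lay close together and well under the control. SMAD1 and SMAD5, the other BMP-branch SMADs, had log2 ratios of -0.15, -0.16 and -0.09, and of -0.13, -0.48 and -0.19. SMAD3, on the TGF-beta branch, had 1157 in the control, 1868 under the POU2F3 guide, and 1638 and 1728 under the COLCA2 guides, log2 ratios of 0.69, 0.50 and 0.58. SMAD2, its partner, had log2 ratios of 0.33, 0.12 and 0.30, and the common SMAD4 had 0.36, -0.11 and 0.28.

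The ID genes encode helix-loop-helix proteins without a DNA-binding region that hold other transcription factors inactive. They were the most abundant role per kilobase, with a sum of 12612 in the control and 19657, 17101 and 17036 under the POU2F3 guide and COLCA2 guides 1 and 2. ID4 had 2834 in the control, 6465 under the POU2F3 guide, and 4959 and 5614 under the COLCA2 guides. Its log2 ratio of 1.19 under the POU2F3 guide passed 2-fold, while the COLCA2 ratios of 0.81 and 0.99 fell just short. ID3 had 7534, 14189, 12070 and 11718 in the same order, a log2 ratio of 0.91 under the POU2F3 guide and 0.66 ± 0.030 under the COLCA2 guides. ID1 and ID2, by contrast, kept log2 ratios from -0.06 to 0.07 and from -0.11 to 0.16, so ID genes did not move together.

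Latency proteins hold secreted TGF-beta in the matrix until it is released. LTBP3 had the highest level per kilobase of the 4, with a normalized count of 5139 in the control, and its log2 ratios were -0.02, 0.19 and -0.01. LTBP1 had a log2 ratio of 0.45 under the POU2F3 guide and -0.06 and -0.03 under the COLCA2 guides. None of the 4 was 2-fold apart in any library: LTBP2 and LTBP4 had log2 ratios from -0.36 to 0.21. The 13 members under the expression minimum were BMP5, BMP10, BMP15, GDF2, GDF3, GDF5, GDF6, GDF9, GDF10, INHA, INHBC, ACVR1C and ACVRL1. BMP15, GDF2, GDF3 and GDF10 were listed at 0 in all 4 libraries, and the other 9 had at most 32 reads in any.

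POU2F3 gRNA was also set directly against the COLCA2 guides, which leaves the control out. No member was at least 2-fold lower than with each guide, where 0.924% of all genes were, and none was at least 2-fold higher, where 0.442% were. Against COLCA2 gRNA 2 alone, NOG and ACVR1 were at least 2-fold higher under the POU2F3 guide, by log2 differences of 1.06 and 1.26, and against COLCA2 gRNA 1 alone no member was. The members with the largest differences of the same sign from both guides were GDF15 and BMP2, which were lower under the POU2F3 guide, and NOG, which was higher. edgeR's quasi-likelihood test, whose single residual degree of freedom rests on the pair of COLCA2 libraries, called 0 of the 50 lower (0.234% of all genes) and 0 higher (0.107%) at an adjusted p under 0.05, while 14 had an unadjusted p under 0.05 (28%, against 13.6% of all genes).

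Other genes of the pathway came from lists that hold no member and were chosen with earlier results of these data known. Of 22 genes that TGF-beta is known to induce, 21 passed the minimum. Some of these, among them TGFBI with 4.77 in the control, were under 20 there. They passed the minimum through the targeted libraries and are among those counted as higher. Under the POU2F3 guide 16 of the 21 were at least 2-fold higher and 0 lower, and under both COLCA2 guides 13 were higher and 0 lower. Over all genes 6.73% were higher and 3.05% lower under the POU2F3 guide, and 5.79% and 2.02% under both COLCA2 guides. The median log2 ratio of the 21 was 1.81 under the POU2F3 guide and 2.00 for the mean of the guides, beside -0.0037 and -0.0086 over all genes. TAGLN, an actin-binding protein, had 108 in the control, 1614 under the POU2F3 guide, and 2742 and 2897 under the COLCA2 guides. CCN2, a matricellular protein, had 1159, 12891, 10015 and 12567 in the same order. LIF, a cytokine, had 147, 1202, 1717 and 1853. CCN1, a relative of CCN2, had 3202, 20909, 18379 and 21551, and TIMP1, a metalloproteinase inhibitor, 121, 575, 762 and 739.7. Not every listed gene differed so: COL1A1 had log2 ratios of -0.18, 0.06 and -0.17, and SNAI1 of -0.96, 0.19 and -0.10.

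Of 11 genes that BMP is known to induce, all passed the minimum, and their median log2 ratio was -0.077 under the POU2F3 guide and 0.13 for the mean of the guides. HES1, ATOH8 and RUNX2, 3 of the 11, were at least 2-fold higher under the POU2F3 guide and under both COLCA2 guides. Over all genes 6.73% and 5.79% were that much higher, and 3.05% and 2.02% that much lower. VENTX, a homeobox repressor, had 84.0 in the control, 31.9 under the POU2F3 guide, and 64.3 and 37.6 under the COLCA2 guides, so it passed 2-fold with POU2F3 but not under both COLCA2 guides. HES1, a repressor also induced by Notch, had 1205 in the control, 6436 under the POU2F3 guide, and 5700 and 5868 under the COLCA2 guides. ATOH8 had 142, 601, 561 and 568. DLX5 had 12882, 6497, 6866 and 5998, log2 ratios of -0.99, -0.91 and -1.10.

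**Figure D5:**
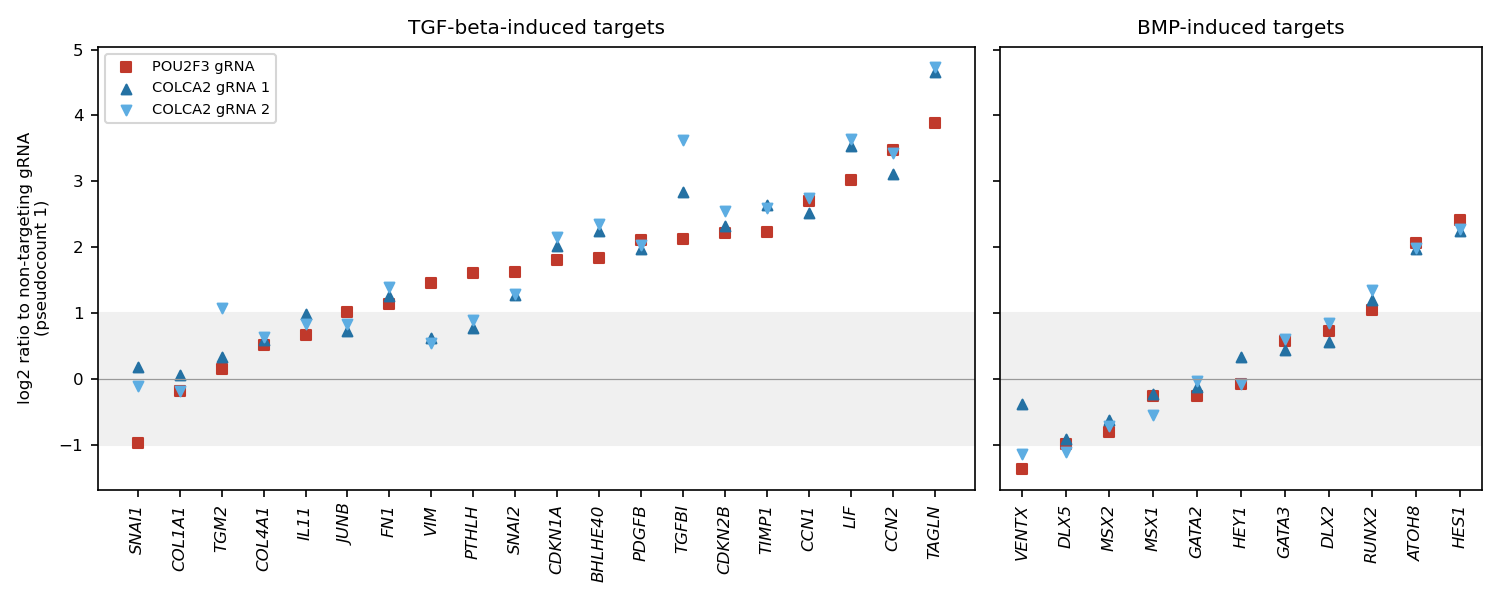
Log2 ratio to the control (vertical axis, pseudocount 1) of 20 TGF-beta-induced genes (left) and 11 BMP-induced genes (right) past the minimum, ordered by their value under the POU2F3 guide, 1 point per targeted library, with the range under 2-fold in grey. On the left 15 of the 20 red squares lie above the grey band and none below it, and on the right 3 of the 11 lie above and VENTX below.

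Of 33 other secreted and membrane regulators 21 passed the minimum, with 5 at least 2-fold higher and 1 lower under the POU2F3 guide, and 4 higher and 1 lower under both COLCA2 guides. Over all genes 6.73% were higher and 3.05% lower under the POU2F3 guide, and 5.79% and 2.02% under both COLCA2 guides. The list's median log2 ratio was 0.10 under the POU2F3 guide and 0.060 for the mean of the COLCA2 guides. The lower gene was MSTN, which encodes myostatin, a superfamily ligand that restrains muscle growth. It had 1693 in the control, 175 under the POU2F3 guide, and 239 and 278 under the COLCA2 guides. The latent TGF-beta activators THBS1 and the integrin subunits ITGAV and ITGB6 were higher: THBS1 had 2026, 20029, 20158 and 22791 in the 4 libraries, ITGAV 2237, 5023, 4750 and 6326, and ITGB6 48.7, 248, 374 and 414. ENG, a co-receptor, was also higher from only 9 control reads, and HTRA1, a protease, had a log2 ratio of 1.02 under the POU2F3 guide and 0.76 and 0.86 under the COLCA2 guides. Of 19 intracellular regulators, all past the minimum, 2 were at least 2-fold higher and 0 lower with each target, a count too small to set apart from those shares of all genes. Their median log2 ratio was 0.038 under the POU2F3 guide and 0.092 for the mean of the COLCA2 guides. TGIF1, a repressor of SMAD2 and SMAD3 activity, had 621, 1707, 1635 and 1752, and PMEPA1, a TGF-beta-induced inhibitor, 283, 620.3, 921 and 996.

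Markers of other cell types were read beside these lists. Of 8 fibroblast markers 7 passed the minimum, and COL3A1, LUM and PDGFRB were at least 2-fold higher under the POU2F3 guide and under both COLCA2 guides. Over all genes 6.73% and 5.79% were that much higher. LUM had 14.3 in the control and passed the minimum through the targeted libraries. The others past it were not 2-fold apart in any library. PDGFRA had log2 ratios of 0.78, -0.17 and -0.61, COL1A1 of -0.18, 0.06 and -0.17. DCN had 0.50, -0.05 and 0.77, and THY1 had 0.73, 0.83 and 0.82. The 8 summed to 1936 in the control and to 2703, 3154 and 2814 in the targeted libraries, and COL1A2 was under the minimum. COL1A1 is also on the TGF-beta-induced list and DCN on that of secreted regulators. Among 5 epithelial markers KRT8, KRT18, KRT19 and CDH1 were at least 2-fold higher with each target, and EPCAM had log2 ratios of -0.69, -0.44 and -0.23. The 5 summed to 12971, 28210, 34877 and 39450. The part of either marker list in the superfamily values was not tested.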

How the data were processed

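What the authors deposited is, per the file headers, a linear signal: read counts of each gene after normalization. Per the submitters' processing notes, Salmon, DESeq2 and build hg38 were used, with no versions. Dividing by the step of each library gave whole reads for 100% of values (tolerance 1e-06), although estimated counts could have been rounded earlier. Rows of the same symbol were summed (38145 rows, 35979 symbols, 1149 of them with several rows). Genes with a mean of at least 20 were kept, which left 14940. Log2 ratios used a pseudocount of 1. Exact (Clopper-Pearson) intervals at 95% cover counting error only, because each sets the reads of 1 library against those of another. No molecular identifiers separate molecules from copies, so the intervals may be too narrow even for that error.

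The members, gene lists and motifs were chosen with earlier results of these data known. Named were the targeted genes, members at least 2-fold apart with POU2F3 gRNA or both COLCA2 guides, all ID genes, SMADs and receptors, the member of each role with the highest control count, and listed genes 2-fold apart in all targeted libraries that reached 100, at most 6 each way. Other genes were named after their values were seen. Some genes that the rule names are counted but not reported by name here.

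As an alternative, edgeR 4.0.16 (R 4.3.3) was run on the recovered reads of 14940 genes in 3 groups, with TMM normalization and Benjamini-Hochberg adjustment. It called 1263 genes higher and 595 lower for POU2F3, and 1709 and 1122 for COLCA2. Scripts (Python 3.11.15) were tested on simulated data. Other alternatives were other minimums, pseudocounts, scalings and fold thresholds, the highest row of a symbol, and each guide left out.

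Gene positions and transcript lengths come from GENCODE release 29 (GRCh38), which held the deposited identifiers of 61 of the 63 members. GREM1 and ID3 were not matched by identifier and are given without a position. Their lengths were matched by symbol. Of the 63 members 20 share exon bases with another gene there.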

Additional observations from a re-analysis of the deposited data

How the results depend on the processing

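No paired analysis was possible because 2 of the 3 groups hold a single library. Counts within 1.5 times and medians within 0.050 (the SD between guides) of the reported value are not listed. No scaling, pseudocount, expression minimum or choice of row moved a count of members by more than 1.5 times. Smaller changes did occur: with both COLCA2 guides, 12 members were higher at a minimum of 100, and 4 were lower without a minimum. No scaling took the all-gene median beyond -0.078. Fold thresholds moved counts by construction. At 4-fold, 9 members were higher and 0 lower with POU2F3 gRNA, and 9 higher and 0 lower with both COLCA2 guides. At 1.5-fold, 5 were lower with POU2F3 gRNA, and set against both COLCA2 guides POU2F3 gRNA had 1 higher and 2 lower. The median of the members with the COLCA2 guides was 0.085 without an expression minimum, over 59 members, and 0.084 when scaled to equal totals. The all-gene median under that scaling was -0.078. The cause was not tested. Leaving out a guide gave 0 to 2 members higher with POU2F3 gRNA than with COLCA2 gRNA: without gRNA 1 there were 2, NOG and ACVR1. No log2 ratio of a member at least 2-fold apart changed sign under the alternatives run, and GREM1 alone dropped under 2-fold, on its highest row. Low reads limit TGFBR2, BMP3, BMPR1B, INHBA and TGFB2, with 34 to 49 reads in the only control library.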

Other observations

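The 2 annotated rows of GREM1 differed in their values. One stood at 4.77 normalized counts in the control, 57.1 under the POU2F3 guide, and 42.5 and 42.3 under COLCA2 guides 1 and 2. The other had 75.4, 121, 163 and 139.9 in the same order. Neither identifier is in GENCODE release 29 on the primary assembly, so which copy the reads came from is not known here.

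SOSTDC1, a secreted BMP and Wnt antagonist, and BAMBI, a decoy receptor of the superfamily, were named after their values were seen. SOSTDC1 had 5520.4 in the control, 4552 under the POU2F3 guide, and 4359 and 4079 under COLCA2 guides 1 and 2. BAMBI had 3847, 4307, 4059 and 3963 in the same order. Both were abundant, and neither was 2-fold apart in any library, unlike the antagonists follistatin and noggin.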
